A study of Mus musculus with 32 samples.

Results

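MHC class II antigen presentation was followed in injured mouse spinal cord through 8 genes named by symbol: the chain genes H2-Aa, H2-Ab1 and H2-Eb1, the invariant chain gene Cd74, the peptide exchange genes H2-DMa and H2-DMb1, the protease gene Ctss and the transactivator gene Ciita. All 8 were present among the 23420 genes of the deposited count table, and all 8 passed the filter on low counts that left 16314 genes for testing. In the GENCODE annotation of GRCm38, all 8 are protein-coding. H2-DMa, H2-DMb1, H2-Ab1, H2-Aa and H2-Eb1 lie within 197 kb of chromosome 17, from 34119541 to 34316674. Ciita lies on chromosome 16 (10480059 to 10528418), Ctss on chromosome 3 (95526786 to 95556403) and Cd74 on chromosome 18 (60803848 to 60812652).

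Bulk RNA-seq of 32 libraries profiled spinal cord of C57BL/6J mice aged 8 to 12 weeks, taken as a short segment to either side of the lesion. The uninjured sham groups date from 3 and 35 days (n = 3 each). Injured cords with a control treatment were taken at 3, 14 and 35 days (n = 3, 3 and 4), injured cords with Gsx1 at the same days (n = 3, 3 and 4), and injured cords with Nkx6.1 at 3 and 35 days (n = 3 each). Both treatments are named for homeobox proteins that pattern neural progenitors in the embryo, and the series asks about locomotor recovery with Gsx1. The sources used here do not give the delivery route, the injury model or the sex of the mice. The sham labels name no control treatment, so lesion and control treatment cannot be told apart in a comparison with sham. At 14 days there are neither sham nor Nkx6.1 cords.

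MHC class II molecules are heterodimers of an alpha and a beta chain that display peptides from endocytosed protein to CD4 T cells. The invariant chain fills the groove of a new dimer and steers it to endosomes, where cathepsin S trims the invariant chain to a short remnant and the DM heterodimer exchanges that remnant for antigen peptide. CIITA, the class II transactivator, is recruited to the promoters of these genes by factors bound at the conserved X and Y boxes, and interferon gamma induces it. Resident microglia show little class II in the healthy cord, and activated microglia, infiltrating macrophages, dendritic cells and B cells are the known sources after damage. Mice of the C57BL/6 background carry a deletion in the H2-E alpha gene, so that H2-Eb1 RNA is made without an H2-E dimer at the surface.

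The promoters of 4 members are shown, 3 that held the X1 and Y letters described here and 1 (Ctss) that did not (RefSeq, GRCm38.p6, 250 bases before to 50 after an annotated start, read 5′ to 3′ on the gene's strand). Of the 8 members, 5 had an entry there, namely H2-Aa, H2-Eb1, H2-DMb1, H2-DMa and Ctss. Capitals mark a copy of TNGNAAC, the core of the X1 box, followed within 30 bases by TGATTGG, the Y box on the same strand, and any match to AANNGAAA, the core bound by interferon regulatory factors (TTTCTTTT in Ctss is such a match on the other strand). H2-Aa lies on the minus strand at chr17:34287774-34288073, H2-Eb1 on the plus strand at chr17:34305617-34305916, H2-DMb1 on the plus strand at chr17:34152941-34153240 and Ctss on the plus strand at chr3:95526536-95526835.
H2-Aa: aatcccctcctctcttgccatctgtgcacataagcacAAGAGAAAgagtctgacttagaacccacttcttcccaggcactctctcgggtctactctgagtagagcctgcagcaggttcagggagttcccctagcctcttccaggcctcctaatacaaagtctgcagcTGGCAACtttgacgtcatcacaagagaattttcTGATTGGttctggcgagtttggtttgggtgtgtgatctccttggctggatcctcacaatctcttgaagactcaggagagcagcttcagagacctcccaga
H2-Eb1: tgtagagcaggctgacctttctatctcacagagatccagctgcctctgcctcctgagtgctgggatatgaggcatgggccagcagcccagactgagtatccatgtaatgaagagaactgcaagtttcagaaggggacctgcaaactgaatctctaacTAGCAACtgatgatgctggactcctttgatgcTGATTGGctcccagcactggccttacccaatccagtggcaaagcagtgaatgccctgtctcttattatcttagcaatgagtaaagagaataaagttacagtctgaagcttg
H2-DMb1: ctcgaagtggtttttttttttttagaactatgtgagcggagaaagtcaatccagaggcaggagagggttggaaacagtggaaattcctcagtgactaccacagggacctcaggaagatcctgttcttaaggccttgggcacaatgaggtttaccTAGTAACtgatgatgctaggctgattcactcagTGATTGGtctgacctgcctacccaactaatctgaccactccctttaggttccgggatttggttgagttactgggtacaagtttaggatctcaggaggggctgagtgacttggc
Ctss: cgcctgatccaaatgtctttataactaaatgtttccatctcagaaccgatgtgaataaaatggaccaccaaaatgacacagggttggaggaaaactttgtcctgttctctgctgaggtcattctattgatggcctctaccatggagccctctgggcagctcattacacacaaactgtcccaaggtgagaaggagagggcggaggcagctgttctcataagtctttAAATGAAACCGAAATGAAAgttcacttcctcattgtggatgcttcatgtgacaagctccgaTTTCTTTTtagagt
The X1 and Y letters were 26 bases apart in H2-Aa and H2-DMb1 and 25 apart in H2-Eb1. Neither H2-DMa window nor that of Ctss held the pair. The H2-DMa windows began at 34122582 and 34125268, past the GENCODE gene start at 34119541. The sequence before that start was not searched, so a lack of the pair in H2-DMa cannot be read from them. Searched on both strands, the pair stood in 57 of 32851 promoters of the same length (0.174%), whereas X1 alone stood in 35.2%, Y alone in 7.82% and the interferon factor core in 23.9%. Among the genes with the pair were also H2-Ob, a chain of the class II chaperone H2-O, and Rfx5, a subunit of the factor that binds the X box. These were picked out for their class II role. The pair also stood in promoters of genes that are not class II genes, among them Calm4, Dnmt1, Mcm7, Plk1 and Ubb. The Ctss window held 4 matches to the interferon factor core, of which 3 overlap each other in the 25 bases before the start. The letters were chosen after these promoters had been read, and a match is a description of sequence, not a binding site.

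Library totals ranged from 10.8 M to 19.5 M counts (median 14.6 M), and levels below are CPM, that is counts per M of TMM-scaled library size. The labels do not tie the libraries of a group to separate animals, and each p-value therefore reflects library-to-library spread that may be technical. Sex-linked genes differed within groups: 25 libraries had Xist at 17.3 CPM or less and Ddx3y at 71.0 or more, 5 had Xist at 407 or more and Ddx3y at 2.87 or less, and 2 had both (sham at 3 days replicate 1, with 503 and 19.1 CPM, and injured control at 35 days replicate 4, with 676 and 32.1 CPM). Results that rest on these 2 libraries are given with and without them. All Gsx1 libraries of each day were among the 25, while the injured control groups at 3 and 35 days held more than 1 class. H2-Bl, an MHC locus annotated as a polymorphic pseudogene 1763 kb from the class II members on chromosome 17, and the ribosomal protein gene Rpl29 also stood at separate levels within groups, and their values are given with the results at 14 days. In bulk tissue, fewer cells of a type and less RNA per cell cannot be told apart. Reads of H2-DMb1 and H2-DMb2, and of H2-Eb1 and H2-Eb2, could be split between near-identical copies, and no source used here names the strand setting of the counting.

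H2-Aa, the alpha chain of the H2-A dimer, was near the lower end of detection in sham cord and rose in injured control cord at both days tested. Its level was 2.13, 5.47 and 2.19 CPM in the sham libraries at 3 days and 21.8, 16.3 and 27.5 CPM in the injured controls. At 35 days it was 0.313, 2.04 and 1.07 CPM in sham, from 4 to 24 counts, and 38.7, 32.3, 40.7 and 115 CPM in the injured controls. Every injured library lay above every sham library of its day, as happened in either direction for 55.6% of all genes at 3 days and 38.4% at 35 days, and 1 injured control at 35 days (replicate 4) stood far above the other 3. The log2 fold change was 2.76 ± 0.87 (SE) at 3 days (6.76-fold, adjusted p = 0.0152) and 5.65 ± 1.00 at 35 days (50.2-fold, adjusted p = 0.00013). At 3 days the call was lost without sham replicate 1 (adjusted p = 0.0605) or 3 (adjusted p = 0.0632), and without sham replicate 2 the change was 3.35. At 35 days the change was 5.04 when injured control replicate 4 was left out and 6.36 when sham replicate 2 was.

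H2-Ab1, which encodes the beta chain that pairs with H2-Aa, behaved alike in level and size of change. It was 1.28, 4.05 and 2.12 CPM in sham and 25.1, 15.8 and 24.8 CPM in injured control cord at 3 days. At 35 days sham stood at 1.25, 1.61 and 0.902 CPM and the injured controls at 37.3, 30.8, 37.6 and 116 CPM. The groups did not overlap at either day, where 55.6% and 38.4% of all genes did not, and replicate 4 was again the highest. H2-Ab1 rose by a log2 fold change of 3.15 ± 0.89 (adjusted p = 0.00757) at 3 days and 5.46 ± 0.97 (adjusted p = 0.000142) at 35 days, or 4.80 without replicate 4. As a share of H2-Ab1 counts, those of H2-Aa in injured controls stood at 100% ± 12.2 (SD, n = 3) on day 3, 105% ± 13.9 (SD, n = 3) on day 14 and 104% ± 3.59 (SD, n = 4) on day 35.

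H2-Eb1, the beta chain of the H2-E molecule, also rose although its partner was all but silent. At 3 days its mean was 3.94 ± 1.33 CPM (SD, n = 3) for sham and 20.3 ± 4.53 CPM (SD, n = 3) for injured control cord, and at 35 days 2.16 ± 0.333 (SD, n = 3) and 54.3 ± 38.5 CPM (SD, n = 4). The pseudogene H2-Ea-ps, the locus of the alpha chain, had 1 count in 1 of the 32 libraries. Log2 fold changes of H2-Eb1 were 2.37 ± 0.83 (adjusted p = 0.0277) and 4.65 ± 0.89 (adjusted p = 0.00033). The call at 3 days was the least secure of the 3 chains. It was lost when any of 4 libraries was left out (sham replicate 1 or 3, injured control replicate 1 or 3; adjusted p from 0.0611 to 0.0869), and without the 2 libraries that had both sex-linked genes (2.25, adjusted p = 0.0656). At 35 days the change was 4.02 without injured control replicate 4.

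**Figure D1:**
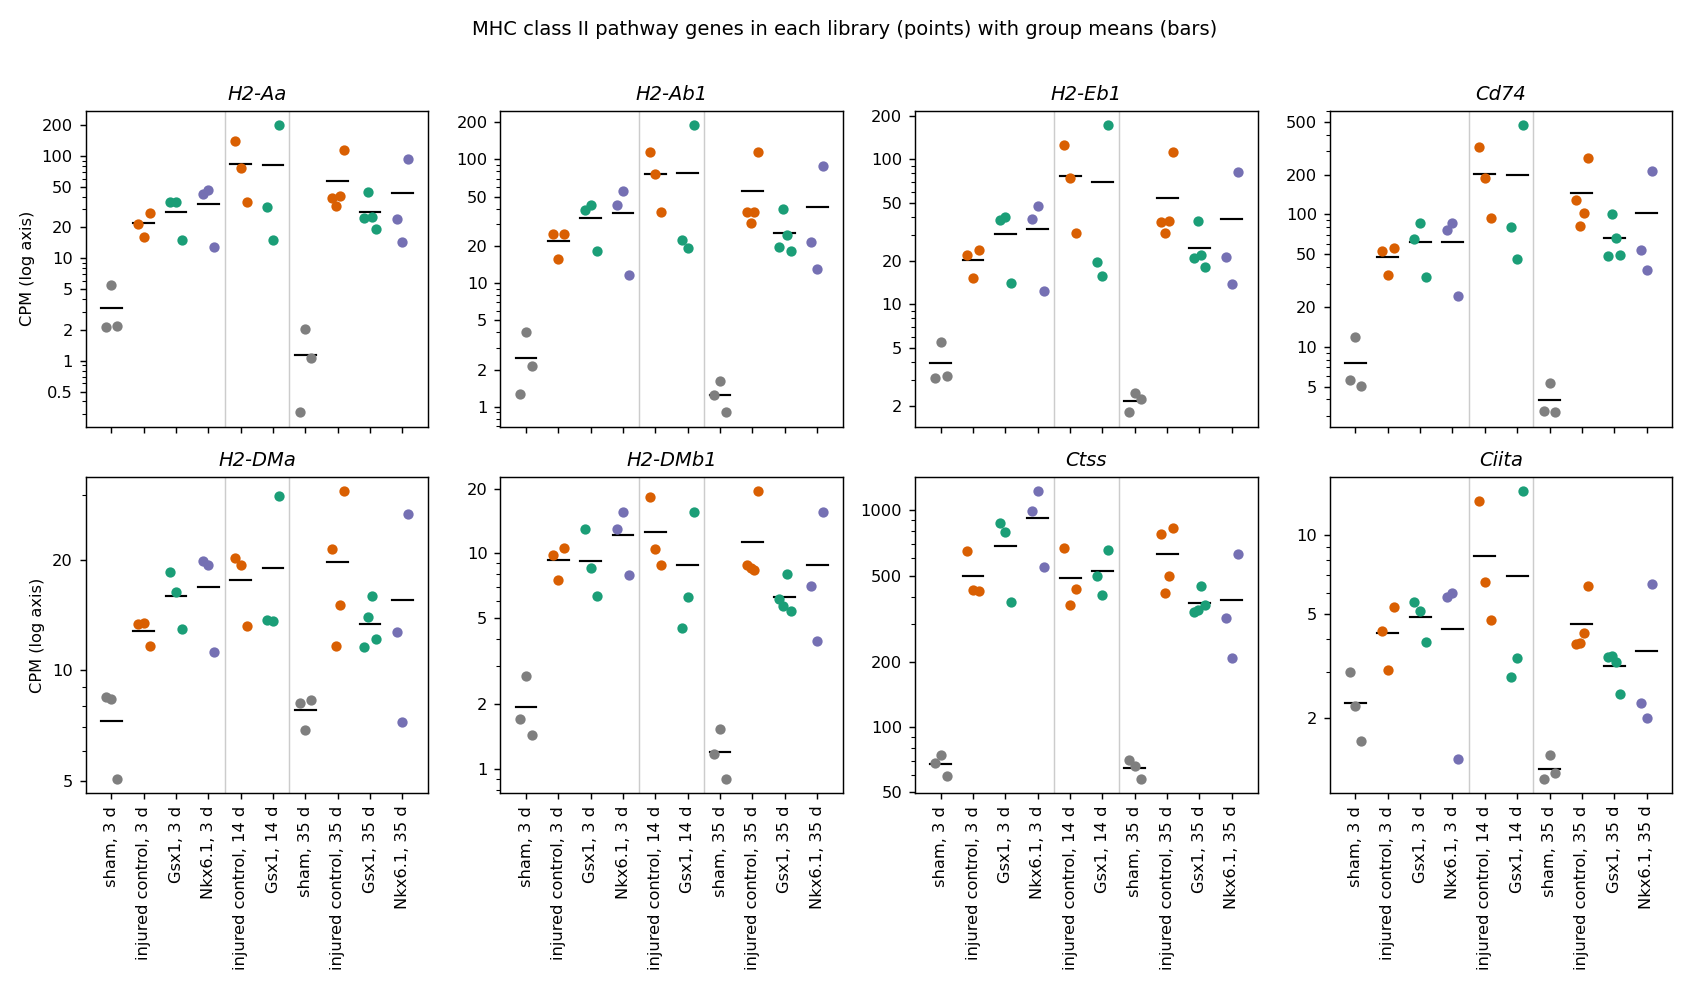
CPM of the 8 genes in each of the 32 libraries on a log axis, 1 panel per gene, with groups ordered by day and grey lines between days. Points are libraries and bars are group means. Within a day sham libraries sit lowest in all panels, with the exception of H2-DMa and Ciita, where 1 Nkx6.1 library lies within or below the sham range of its day, and single libraries at 14 and 35 days stand well above the others of their group.

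Cd74 encodes the invariant chain, and its RNA moved with that of the chains. The sham libraries held 5.61, 11.8 and 5.06 CPM at 3 days and 3.29, 5.34 and 3.20 CPM at 35 days. In injured controls it was 52.6, 34.6 and 56.1 CPM at 3 days, 322, 188 and 94.0 CPM at 14 days, and 129, 82.1, 102 and 266 CPM at 35 days. Injured and sham libraries were apart at both days, with the same shares of all genes as for the chains. The rise over sham was a log2 fold change of 2.68 ± 0.76 (adjusted p = 0.00821) at 3 days and 5.20 ± 0.84 (adjusted p = 4.44e-05) at 35 days. Per library, Cd74 counts were 2.19, 2.47 and 2.67 times those of H2-Aa on average in injured controls at 3, 14 and 35 days. Scaled by exon length, mean levels at 35 days in injured controls were 102 ± 58.8 CPM per kb (SD, n = 4) for Cd74, 50.3 ± 34.7 for H2-Aa, 45.7 ± 33.3 for H2-Ab1, 32.5 ± 23.1 for H2-Eb1, 8.05 ± 3.85 for H2-DMb1, 7.38 ± 3.14 for H2-DMa and 0.555 ± 0.15 for Ciita, against 464 ± 151 for Ctss.

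The chains of the peptide exchange factor DM differed from each other. H2-DMb1, the beta chain, was 1.70, 2.70 and 1.44 CPM in sham and 9.82, 7.55 and 10.5 CPM in injured controls at 3 days, and 1.17, 1.53 and 0.902 against 8.84, 8.57, 8.41 and 19.4 CPM at 35 days. It rose by a log2 fold change of 2.26 ± 0.49 (adjusted p = 0.00105) and 3.23 ± 0.51 (adjusted p = 3.38e-05). The groups did not overlap at either day, where 55.6% and 38.4% of all genes did not. H2-DMa, the alpha chain, already stood at 8.45, 8.33 and 5.06 CPM in sham at 3 days, where injured controls held 13.4, 13.5 and 11.6 CPM. Its groups were apart there, as were those of 55.6% of all genes. The log2 fold change was 0.82 ± 0.38 with an adjusted p of 0.093. The fit to these groups alone gave 0.83 and an adjusted p of 0.0131. At 35 days H2-DMa rose from 8.14, 6.87 and 8.28 to 21.4, 11.6, 15.1 and 30.7 CPM, a log2 fold change of 1.34 ± 0.36 (adjusted p = 0.00619).

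Ctss encodes cathepsin S, the protease that cleaves the invariant chain in most antigen-presenting cells, and it was the most abundant member per length in sham and injured cord at 35 days. Sham libraries held 68.3, 74.1 and 59.3 CPM at 3 days and 70.5, 66.4 and 57.7 CPM at 35 days. Injured controls held 650, 428 and 423 CPM at 3 days and 779, 416, 496 and 829.3 CPM at 35 days. The lowest injured library was over the highest sham library at both days, and sham varied little. Groups were apart, in either direction, for 55.6% of all genes at 3 days and 38.4% at 35 days. The log2 fold changes were 2.90 ± 0.37 (7.44-fold, adjusted p = 2.87e-06) and 3.28 ± 0.37 (9.71-fold, adjusted p = 4.37e-07). No library left out ended either call.

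Ciita, the transactivator, had the smallest level per exon length of the 8 genes in sham and injured control cord at 35 days. Sham held 2.98, 2.22 and 1.64 CPM and injured controls 4.30, 3.06 and 5.31 CPM at 3 days. The 2 groups were apart, as were those of 55.6% of all genes, and the log2 fold change of 0.88 ± 0.55 had an adjusted p of 0.219. At 35 days sham held 1.17, 1.44 and 1.23 CPM and injured controls 3.82, 3.85, 4.21 and 6.39 CPM, and Ciita rose by 1.83 ± 0.56 (adjusted p = 0.0136). That call was lost without sham replicate 3 (adjusted p = 0.0535) or without the 2 libraries that had both sex-linked genes (1.64, adjusted p = 0.0535). Sham libraries at 35 days rested on 15 to 17 counts of Ciita each.

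Against sham, 6 of the 8 genes were called higher at 3 days, where 19.5% of all 16314 genes tested were called higher, and 8 of 8 at 35 days, where that share was 21.3%. The median log2 fold change of the 8 was 2.52 at 3 days and 3.97 at 35 days, against 0.01 and 0.04 over all genes tested. Without the 2 libraries that had both sex-linked genes the counts were 5 and 7. With any 1 library left out they ranged from 4 (without sham replicate 1 or 3) to 6 at 3 days and from 7 to 8 at 35 days. The change in the effect of injury from 3 to 35 days was 2.89 ± 1.33 for H2-Aa (adjusted p = 0.478) and 0.38 ± 0.48 for Ctss (adjusted p = 0.882). It was called for 0 of the 8, where 0.362% of all genes were called. At an unadjusted p under 0.05 there were 2 members among 1563 genes, and DESeq2 called 0 members.

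**Figure D2:**
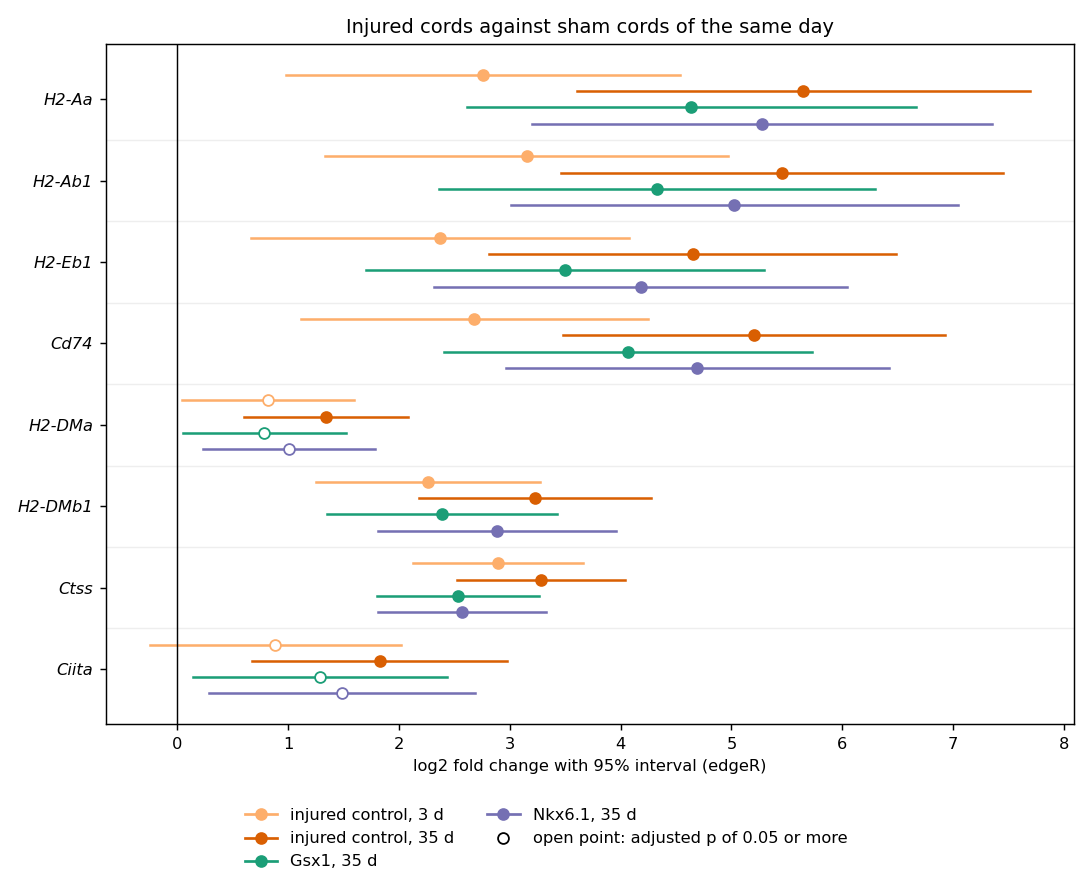
Log2 fold changes of the 8 genes against sham of the same day (x axis; points with 95% intervals from edgeR; filled where the adjusted p was under 0.05). For H2-Aa the estimates run from 2.76 at 3 days to 5.65 at 35 days, while for Ctss they lie between 2.53 and 3.28.

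In the injured controls over time, the chains and Cd74 were highest at 14 days, while Ctss was not. H2-Aa stood at 139, 76.9 and 35.4 CPM at 14 days, all above the 3-day libraries. The libraries of these days were apart for 4 of the 8 members and for 35.3% of all genes. At 35 days it overlapped the 14-day range. From 3 to 14 days the log2 differences were 1.94 ± 0.76 for H2-Aa (adjusted p = 0.152), 1.81 ± 0.75 for H2-Ab1 (adjusted p = 0.178), 1.92 ± 0.74 for H2-Eb1 (adjusted p = 0.15), 2.08 ± 0.70 for Cd74 (adjusted p = 0.0996), 0.97 ± 0.53 for Ciita (adjusted p = 0.303) and -0.03 ± 0.35 for Ctss (adjusted p = 0.966). Of the 8, 0 were called (4 at an unadjusted p under 0.05 among 3258 genes, 0 by DESeq2), where 3.06% of all genes were. In a fit of these 2 groups alone the same 4 genes, H2-Aa, H2-Ab1, H2-Eb1 and Cd74, were called (adjusted p from 0.0257 to 0.0368). The share of all genes called in that fit was not kept, so those calls have no background here. From 14 to 35 days 0 of 8 were called, where 1.32% of all genes were. At an unadjusted p under 0.05 there were 0 members among 3828 genes, and DESeq2 called 0 members. H2-Aa differed by -0.56 ± 0.67 (adjusted p = 0.625). From 3 to 35 days 0 of 8 were called, where 11% of all genes were. At an unadjusted p under 0.05 there was 1 member among 4488 genes, and DESeq2 called 0 members. Cd74 differed by 1.60 ± 0.66 (adjusted p = 0.114).

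The level of H2-Aa was also set against that of Ctss within each library, as a description with no test. H2-Aa counts were 4.55% ± 1.70 (SD, n = 3) of Ctss counts in injured controls on day 3, 16.7% ± 7.40 (SD, n = 3) on day 14 and 8.71% ± 3.75 (SD, n = 4) on day 35. In Gsx1 cords the values were 4.16% ± 0.249 (SD, n = 3), 13.4% ± 14.7 (SD, n = 3) and 7.71% ± 3.44 (SD, n = 4). In Nkx6.1 cords they were 3.46% ± 0.975 (SD, n = 3) on day 3 and 9.74% ± 4.28 (SD, n = 3) on day 35. No library of an injured group at 3 days was above 6.50%, and no library of an injured group at 35 days was below 4.96%, so that the ranges of the 2 days overlapped.

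**Figure D3:**
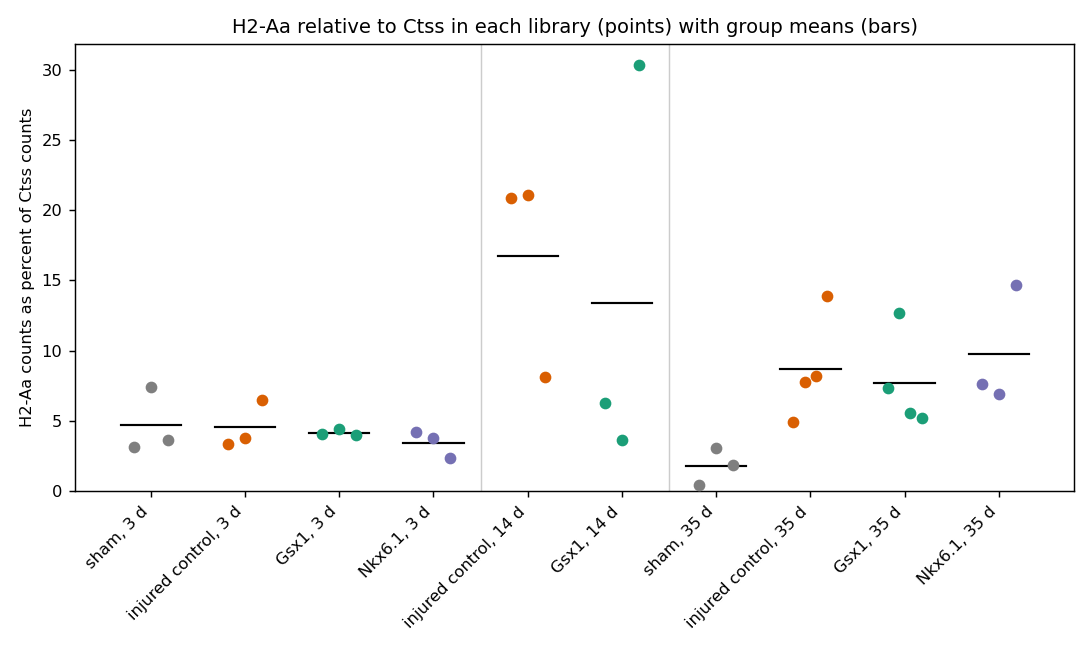
H2-Aa counts as a percent of Ctss counts in each library (y axis, points), with group means as bars and groups ordered by day. The injured libraries at 3 days lie at 6.50% or less, and the 2 groups at 14 days spread from 3.65% to 30.3%.

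The Gsx1 libraries at 14 days differed widely in the chains and Cd74. In Gsx1 cords at that day H2-Aa was 31.4, 14.9 and 200 CPM, H2-Ab1 22.2, 19.2 and 189 CPM, and Cd74 81.0, 46.0 and 473 CPM. Replicate 3 exceeded the other Gsx1 libraries several-fold in each of these genes. H2-Bl was 21.0 CPM in that library and 22.2 and 25.3 CPM in injured control replicates 1 and 2, which had the next highest H2-Aa. It was 4.53, 3.35 and 2.75 CPM in the remaining 3 libraries of that day, which had H2-Aa of 14.9 to 35.4 CPM. Rpl29 was 13.2, 12.1 and 11.1 CPM in the first set and 87.0, 85.8 and 91.4 in the second. At 35 days Nkx6.1 replicate 2 had the highest H2-Bl of its day (29.5 CPM) and the lowest H2-Aa of the injured libraries (14.4 CPM). Its Rpl29 was 82.9 CPM, unlike the first set. Sham replicates 1 and 3 of that day had H2-Bl of 25.3 and 20.2 CPM and H2-Aa of 0.313 and 1.07 CPM. At 3 days Rpl29 was 11.1, 13.3 and 17.9 CPM in sham replicate 2, injured control replicate 3 and Gsx1 replicate 2. H2-Bl was 25.5, 17.5 and 17.2 CPM there, and H2-Aa the highest of each group (5.47, 27.5 and 35.3 CPM), for Gsx1 level with replicate 1. H2-Bl was also 19.1 CPM in sham replicate 3, 16.3 and 11.3 in injured control replicates 1 and 2, and 13.0 in Gsx1 replicate 3. H2-Aa was 2.19, 21.8, 16.3 and 15.2 CPM in these, the last being the lowest of its group. Nkx6.1 replicate 3 of that day had H2-Bl of 29.7, Rpl29 of 169 and the lowest H2-Aa of its group (12.9 CPM). With H2-Bl and Rpl29 as covariates, the 3 to 14 day difference of H2-Aa was 0.80 (adjusted p = 0.567) and that of Cd74 1.07 (adjusted p = 0.379), against 1.94 and 2.08 without them. With the same covariates H2-Aa was higher than sham by 3.41 at 3 days (adjusted p = 0.00191) and by 5.57 at 35 days (adjusted p = 0.000138).

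**Figure D4:**
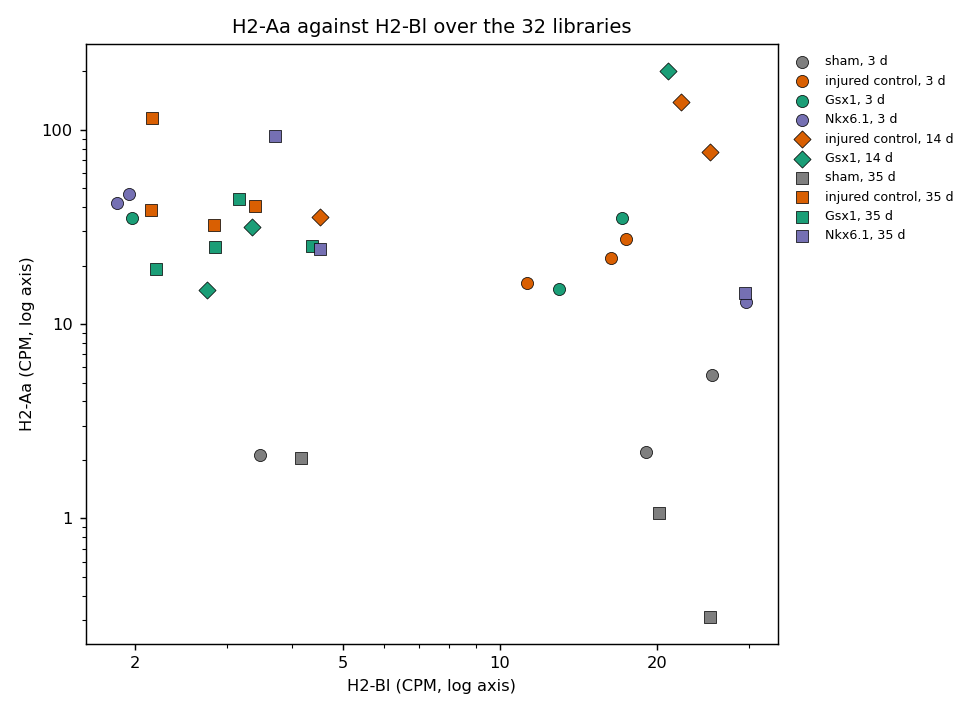
H2-Aa against H2-Bl in the 32 libraries, both in CPM on log axes, with colour for treatment and shape for day. The 3 libraries at 14 days with H2-Bl of 21.0 CPM or more have the highest H2-Aa of the plot apart from 1 injured control and 1 Nkx6.1 library at 35 days, whose H2-Bl is 2.16 and 3.72 CPM.

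Gsx1 cords were compared with injured controls of the same day, which asks whether Gsx1 altered class II expression. At 3 days H2-Aa was 35.3, 35.3 and 15.2 CPM with Gsx1, overlapping the controls, and the log2 difference was 0.39 (95% interval -1.14 to 1.91). At 14 days it was -0.03 (-1.51 to 1.44), and without Gsx1 replicate 3 it was -1.86 (adjusted p = 0.422). At 35 days H2-Aa was 24.8, 44.1, 25.1 and 19.1 CPM with Gsx1 against 38.7, 32.3, 40.7 and 115 CPM in controls, a log2 difference of -1.01 (-2.32 to 0.30; adjusted p = 0.367). The groups overlapped, and without control replicate 4 the difference was -0.41 (adjusted p = 0.874). At each of the 3 days 0 of 8 members were called, where 0% of all genes were. At an unadjusted p under 0.05 there were 0, 0 and 2 members among 338, 960 and 3077 genes at 3, 14 and 35 days, and DESeq2 called 0 members at each day and 0, 47 and 14 genes.

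At 35 days all 8 estimates for Gsx1 lay below 0, from -0.54 for Ciita to -1.15 for H2-Eb1, with adjusted p from 0.221 to 0.507. Their median was -0.93, against -0.03 over all genes tested. Other lists lay below 0 as well: the 9 macrophage markers from -1.55 to -0.32 (median -1.02), the 10 class I genes with a median of -0.81 and the 9 endosomal genes with a median of -0.74, with 0 genes called in each, and their part in the members' estimates was not tested. Ctss and H2-DMb1 had an interval below 0, with -0.75 (-1.37 to -0.13; adjusted p = 0.221) for Ctss and -0.84 (-1.63 to -0.04; adjusted p = 0.248) for H2-DMb1. Ctss was 339, 348, 450 and 364 CPM with Gsx1 against 779, 416, 496 and 829.3 CPM in controls. Its groups overlapped in 1 library on each side. The controls with the most Ctss, replicates 1 and 4, were those with high Xist (407 and 676 CPM). Xist was 3.70 CPM or less in all Gsx1 libraries of that day. The groups thus differed in sex-linked RNA as well as in treatment. H2-DMb1 was 6.15, 5.68, 8.00 and 5.42 CPM with Gsx1 and did not overlap the controls, nor did Ciita with 3.40, 3.44, 3.27 and 2.47 CPM; over all genes tested, 4.37% did not overlap in this comparison. The change in the Gsx1 difference from 3 to 35 days was -1.40 ± 0.98 for H2-Aa (adjusted p = 0.556). It was called for 0 of 8 (1 at an unadjusted p under 0.05 among 1614 genes, 0 by DESeq2), where 0% of all genes were called by either tool.

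Nkx6.1 cords at 3 days held the highest Ctss of the study. Ctss was 995, 1224 and 547 CPM with Nkx6.1 against 650, 428 and 423 CPM in controls, a log2 difference of 0.88 (95% interval 0.17 to 1.60; adjusted p = 0.19). The groups overlapped through replicate 3, without which the difference was 1.15 (adjusted p = 0.0324). H2-Aa was 42.0, 46.5 and 12.9 CPM, with replicate 3 again the lowest, and differed by 0.63 (-0.90 to 2.15; adjusted p = 0.671). At 35 days H2-Aa was 24.2, 14.4 and 92.5 CPM and the difference was -0.37 (-1.78 to 1.03; adjusted p = 0.822). Its sign turned without control replicate 4 (0.24) or without Nkx6.1 replicate 2 (0.04), and it was -1.55 without Nkx6.1 replicate 3. Of the 8 members 0 were called at 3 days, where 0.337% of all genes were, and 0 at 35 days, where 0% were. At an unadjusted p under 0.05 there was 1 member at each day, among 2984 and 2006 genes. DESeq2 called 0 members at each day, and 462 genes at 3 days and 0 genes at 35 days.

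**Figure D5:**
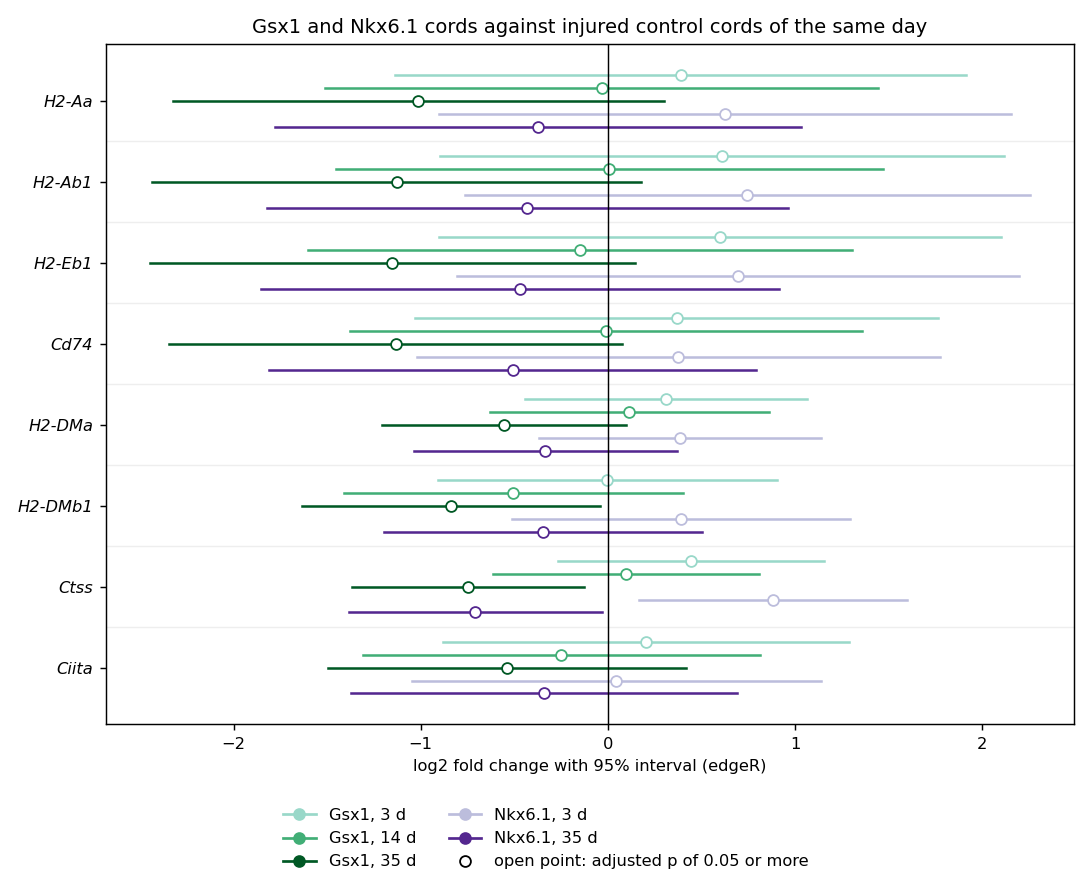
Log2 differences of the 8 genes in Gsx1 and Nkx6.1 cords from injured controls of the same day (x axis; points with 95% intervals from edgeR; open where the adjusted p was 0.05 or more). All 40 points are open, and all 8 estimates for Gsx1 at 35 days lie below 0.

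Within Nkx6.1 cords, Ctss fell from 995, 1224 and 547 CPM at 3 days to 318, 208 and 631 CPM at 35 days. The ranges overlapped through 1 library on each side. The log2 fold change was -1.26 ± 0.35 (adjusted p = 0.0056), the 1 member called lower where 21.5% of all genes were, and in a fit of these 2 groups alone it was -1.28 (adjusted p = 0.0754). In the same comparison 9 of 9 macrophage markers and 8 of 9 endosomal processing genes were called lower and 7 of 7 neuron markers higher, and their part in the fall of Ctss was not tested. The share of all genes called higher was not kept, so the neuron count has no background here. In either direction 8160 genes had an unadjusted p under 0.05, and DESeq2 called 7208. The macrophage sum ran from 3276 to 5856 CPM at 3 days and from 433 to 1405 CPM at 35 days. Cd74 did not pass, at 75.6, 86.4 and 24.3 CPM against 53.5, 38.3 and 213 CPM (0.72 ± 0.68, adjusted p = 0.41). The change in the Nkx6.1 difference from 3 to 35 days was -1.59 ± 0.48 for Ctss (adjusted p = 0.064). DESeq2 gave -1.58 (adjusted p = 0.0193), so that 0 members were called by edgeR and 1 by DESeq2. Over all genes, edgeR called 376 (2.3%) and DESeq2 called 1265.

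Within Gsx1 cords 0 of 8 members were called from 3 to 14 days, where 6.32% of all genes were. At an unadjusted p under 0.05 there was 1 member among 3920 genes, and DESeq2 called 0 members. H2-Aa differed by 1.52 ± 0.74 (adjusted p = 0.208), and by -0.30 without replicate 3 of 14 days. From 14 to 35 days 0 of 8 were called, where 0.00613% of all genes were. At an unadjusted p under 0.05 there were 5 members among 587 genes, and DESeq2 called 0 members. The H2-Aa difference of -1.54 ± 0.68 was 0.28 without replicate 3 of 14 days. In sham cords H2-Aa was lower in every library of 35 days than in those of 3 days, as 25.1% of all genes were apart (-1.51 ± 1.14, adjusted p = 0.836). Of the 8 members 0 were called, where 0.00613% of all genes were. At an unadjusted p under 0.05 there were 0 members among 1171 genes, and DESeq2 called 0 members.

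Set against sham instead of injured control, the treated cords also had high class II genes at 35 days. These comparisons share the sham libraries with that of the injured controls. With Gsx1, 6 of 8 members were called higher, where 8.63% of all genes were. H2-Aa rose by 4.64 ± 0.99 (adjusted p = 0.00258), Cd74 by 4.07 ± 0.81 (adjusted p = 0.00136) and Ctss by 2.53 ± 0.36 (adjusted p = 3.33e-05). H2-DMa (0.78 ± 0.36, adjusted p = 0.173) and Ciita (1.29 ± 0.56, adjusted p = 0.148) did not pass, and the call of H2-Eb1 (3.50 ± 0.88, adjusted p = 0.0104) was lost without sham replicate 1 (adjusted p = 0.0516). In a fit of the 2 groups alone all 8 passed, but the share of all genes that passed in that fit was not kept.

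With Nkx6.1, 6 of 8 members were called higher than sham at 35 days, where 6.37% of all genes were. H2-Aa rose by 5.28 ± 1.01 (adjusted p = 0.00108), Cd74 by 4.69 ± 0.84 (adjusted p = 0.000553) and Ctss by 2.57 ± 0.37 (adjusted p = 5.35e-05). H2-DMa (1.01 ± 0.38, adjusted p = 0.113), whose groups overlapped, and Ciita (1.49 ± 0.58, adjusted p = 0.131) did not pass. Nkx6.1 replicate 3, with H2-Aa of 92.5 CPM, raised these values: without it H2-Aa was 4.10, Cd74 3.54 and Ctss 2.02 above sham, and H2-Eb1 lost its call (3.01, adjusted p = 0.0684).

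Ordered by mean, H2-Aa was highest in injured controls at 14 days (83.9 ± 52.4 CPM; SD, n = 3), followed by Gsx1 at 14 days (82.0 ± 102; SD, n = 3), injured control at 35 days (56.7 ± 39.2; SD, n = 4), Nkx6.1 at 35 days (43.7 ± 42.5; SD, n = 3) and Nkx6.1 at 3 days (33.8 ± 18.2; SD, n = 3). Gsx1 at 3 days (28.6 ± 11.6; SD, n = 3), Gsx1 at 35 days (28.3 ± 10.9; SD, n = 4) and injured control at 3 days (21.9 ± 5.60; SD, n = 3) came next, and sham at 3 days (3.26 ± 1.91; SD, n = 3) and 35 days (1.14 ± 0.864; SD, n = 3) last. All neighbours among the injured groups overlapped. Ctss had another order, led by Nkx6.1 (922 ± 344 CPM; SD, n = 3) and Gsx1 (682 ± 264; SD, n = 3) at 3 days and injured control at 35 days (630 ± 205; SD, n = 4), and ended at 375 ± 50.7 (SD, n = 4) for Gsx1 at 35 days among injured groups, again with all neighbours overlapping. Ciita followed the chains in having its highest means at 14 days, with 8.27 ± 4.60 CPM (SD, n = 3) in injured controls and 6.96 ± 6.65 (SD, n = 3) with Gsx1. All neighbours among the injured groups overlapped here too. The Gsx1 mean at 14 days rests on replicate 3: its libraries held 2.86, 3.39 and 14.6 CPM, against 5.53, 5.10 and 3.91 CPM with Gsx1 at 3 days.

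Across the 32 libraries, H2-Aa, H2-Ab1, H2-Eb1 and Cd74 were almost interchangeable. Pearson's r of log2 CPM was 0.979 to 0.990 over their 6 pairs, and 0.912 to 0.978 after the group means were subtracted. The points share library depth and the contrast of injured with sham cord. H2-DMb1 had r of 0.921 to 0.955 with these 4 genes, Ctss 0.860 to 0.901, Ciita 0.854 to 0.889 and H2-DMa 0.845 to 0.896. Within groups Ciita kept 0.831 to 0.901 and Ctss 0.662 to 0.767. The non-members most like the mean of the 8, among 13861 genes with a mean of at least 1 CPM, were Casp4 (r = 0.926), Clec7a (0.921), Tgfbr1 (0.920), Zmynd15 (0.918), Pyroxd2 (0.917), H2-D1 (0.916), Fgl2 (0.915) and Ccl8 (0.914). Those most like Ciita were Fap (0.855), Naalad2 (0.841) and Pyroxd2 (0.836).

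The remaining class II genes were near the lower end of detection in sham cord. H2-Oa and H2-Ob encode the H2-O dimer, which restrains DM. H2-Ob rose over sham by 1.56 ± 0.55 (adjusted p = 0.0284) at 3 days and 3.80 ± 0.53 (adjusted p = 7.06e-06) at 35 days, from 0.406 ± 0.0652 to 5.79 ± 3.90 CPM at the later day. H2-Oa did so at 35 days (4.59 ± 0.88, adjusted p = 0.000314), and had 2.16 ± 0.90 (adjusted p = 0.0628) at 3 days. H2-DMb2, the second DM beta chain, rose at 3 days (2.17 ± 0.69, adjusted p = 0.0156) and had 1.48 ± 0.60 (adjusted p = 0.0541) at 35 days. H2-Eb2 had at most 9 counts in a library and was not tested.

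The factors that assemble on class II promoters showed no common change. Of 7 tested (RFX subunits, NF-Y subunits and Creb1), 1 was called higher and 1 lower at each day. Nfya, an NF-Y subunit that binds the Y box, rose by 1.07 ± 0.20 (adjusted p = 0.000209) at 3 days and 1.22 ± 0.19 (adjusted p = 3.34e-05) at 35 days. Rfxap, an RFX subunit, fell by 0.39 at 3 days (adjusted p = 0.0269) and Nfyb by 0.34 at 35 days (adjusted p = 0.0171). Rfx5 had 40.7 ± 1.41 CPM (SD, n = 3) in sham and 34.0 ± 0.837 (SD, n = 3) in injured controls at 3 days (-0.26 ± 0.13, adjusted p = 0.11). Upstream of Ciita, 5 of 7 tested genes of the interferon gamma axis were called higher at 3 days, and 2 higher and 1 lower at 35 days. Irf1, an interferon regulatory factor, rose at both days (1.68 ± 0.40, adjusted p = 0.00255; 2.35 ± 0.40, adjusted p = 8.95e-05). Ifng itself had 0 to 4 counts in a library.

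Of 9 tested genes of endosomal processing, which supply peptides to class II, 8 were called higher at 3 days and 9 at 35 days, among them the aspartic protease Ctsd (2.67 ± 0.33, adjusted p = 1.95e-06; 2.90 ± 0.33, adjusted p = 4.4e-07) and, at 35 days, the aminopeptidase Ctsh (3.22 ± 0.35, adjusted p = 2.69e-07). All 10 genes of MHC class I presentation were called higher at both days, with the smallest p-value for the immunoproteasome subunit Psmb8 (3.27 ± 0.47, adjusted p = 1.06e-05; 3.00 ± 0.45, adjusted p = 1.76e-05), and their median of 2.12 at 3 days and 2.55 at 35 days stood beside 2.52 and 3.97 for the class II members. Of 6 costimulation genes 5 were called higher and 1 lower at 3 days, and 4 higher at 35 days. Cd86, the ligand of CD28, rose by 2.35 ± 0.45 (adjusted p = 0.000289) and 2.91 ± 0.44 (adjusted p = 1.83e-05), while Cd83 fell by 0.81 at 3 days (adjusted p = 0.00154). Of 3 tested turnover genes 1 was called higher at 3 days, the intramembrane protease gene Sppl2a (0.59 ± 0.14, adjusted p = 0.00242), and 0 at 35 days.

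Of 8 tested genes of the T cell side of class II recognition, 1 was called higher at 3 days (Cd28, the receptor for Cd86, adjusted p = 0.000315) and 8 at 35 days, with the smallest p-value for Lag3, an inhibitory receptor that binds class II (3.69 ± 0.57, adjusted p = 2.35e-05). Cd4, the coreceptor for class II, was 0.443 ± 0.247 CPM (SD, n = 3) in injured controls at 3 days and 0.821 ± 0.384 (SD, n = 4) at 35 days. The list also holds Cd8a, the coreceptor for class I, so its counts and sums are not of class II recognition alone. Cd8a had -0.55 ± 1.31 (adjusted p = 0.782) at 3 days and 5.80 ± 1.23 (adjusted p = 0.000918) at 35 days, against 3.72 ± 0.99 (adjusted p = 0.00584) for Cd4. The summed level of the 8 ran from 7.77 to 10.0 CPM over the injured controls at 3 days and from 30.0 to 84.3 CPM at 35 days, against 2.70 to 5.20 and 3.22 to 4.23 CPM in sham.

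Macrophage and microglia markers moved with the members, and their part in the result was not tested. Of the macrophage markers 9 of 9 tested were called higher at both days, with a summed level of 83.8 to 96.9 CPM in sham and 1462 to 2749 CPM in injured controls at 3 days, and 43.6 to 65.3 against 1301 to 2903 CPM at 35 days. Of the microglia markers 7 of 10 were called higher at both days (364 to 418 against 1078 to 1193 CPM, and 379 to 423 against 998 to 1753 CPM). The dendritic cell list had 2 of 10 higher and 1 lower at each day, a share near that over all genes. Itgax, which encodes CD11c and is also made by activated microglia, rose by 5.12 ± 0.58 (adjusted p = 6.07e-07) and 7.24 ± 0.59 (adjusted p = 1.21e-08), while Flt3, a defining dendritic cell gene, fell by 0.71 (adjusted p = 0.00956) and 0.64 (adjusted p = 0.0112). Also called higher were Ccr7 at 3 days (3.52 ± 1.16, adjusted p = 0.0199) and Batf3 at 35 days (1.16 ± 0.38, adjusted p = 0.0196). B cell markers had 0 of 6 called at 3 days and 1 of 6 at 35 days (Pax5), with a summed level of at most 13.1 CPM in any library. In the 2 injured groups at 14 days the B cell sum was highest in the 2 libraries with the most H2-Aa, at 13.1 and 11.1 CPM, whereas injured control replicate 4 at 35 days had the lowest B cell sum of its group (4.46 CPM). That library, the highest of its group in class II, also had the highest macrophage sum (2903 CPM) and the lowest neuron sum (3720 CPM, against 6319 to 7730 in the other 3).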

How the data were processed

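Gene-level read counts of 32 libraries were used as the authors deposited them. The submitters' processing notes name HISAT2, SAMtools, HTSeq and DESeq2 with mm10 and GRCm38, without versions, and no source used here names the annotation or strand setting. All 32 columns were matched to samples by title, and no libraries of a group agreed within sampling noise. Members, lists and alternatives were chosen with earlier results of these data known.

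Genes were filtered with filterByExpr (minimum count 10, total 15) and TMM-scaled, and 16314 of 23420 were tested by edgeR 4.0.16 (R 4.3.3) in 1 quasi-likelihood model of 10 groups (22 residual degrees of freedom, common biological variation 20.8%). Benjamini-Hochberg adjustment ran over all genes tested within each of 19 comparisons (16 pairs of groups and 3 interactions), and a gene was called at an adjusted p under 0.05. The standard error is the log2 fold change divided by the square root of F, and ± after a log2 fold change is that error. Levels are CPM, with a prior count of 0.5 for correlations. Outside the members, genes were named from the 3 smallest p-values of a list in a comparison, with a few class II, interferon and T cell genes added after their values were seen. Scripts were tested on simulated data. Alternatives were DESeq2 1.42.0 (size factors, Wald test), no filter, the compared groups alone, a replicate block, leaving out libraries, covariates for Xist or for H2-Bl and Rpl29, and a threshold of 0.01. Fits of the compared groups alone were kept for the members only, without the share over all genes. Positions are from GENCODE for GRCm38 and promoters from RefSeq.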

Additional observations from a re-analysis of the deposited data

Results flagged for a closer look

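In injured controls at 35 days, 1 of the 4 libraries (replicate 4) stood apart from the others in 5 of the 8 genes, by its gap to the next library relative to the range of the group. H2-Aa was 115 CPM against 40.7 in the next library, H2-Ab1 116 against 37.6, H2-Eb1 112 against 37.4, H2-DMb1 19.4 against 8.84 and Ciita 6.39 against 4.21. The 16 combinations of a gene with a group of 4 libraries were examined, and chance marks about 1 in 20 where they are independent. Here all 5 marks fell on the same library and on genes that move together, so they are not 5 separate events. The same library is 1 of the 2 with both Xist and Ddx3y, has the highest macrophage marker sum (2903 CPM) and the lowest neuron marker sum (3720 CPM) of its group, and its part in these values was not tested. Without it, the Gsx1 difference at 35 days was -0.41 for H2-Aa, -0.48 for H2-Ab1, -0.52 for H2-Eb1, -0.45 for H2-DMb1 and -0.33 for Ciita.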

How the results depend on the processing

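The calls of H2-Aa, H2-Ab1, H2-Eb1, H2-DMa, H2-DMb1, Cd74, Ciita and Ctss kept their sign under the alternatives run. Counts of members called that moved by over 1.5 times were 4 instead of 0 for injured control from 3 to 14 days and 0 instead of 1 for Nkx6.1 from 3 to 35 days with the compared groups alone, and 1 instead of 0 for the Nkx6.1 change over time with Xist as covariate and with DESeq2's Wald test. Uncalled differences that turned sign were H2-Aa at 0.032 for Gsx1 at 14 days and 0.47 for injured control from 14 to 35 days with H2-Bl and Rpl29 as covariates, H2-Aa at 0.24 for Nkx6.1 at 35 days without the 2 libraries with both sex-linked genes, Ctss at 0.079 for injured control from 3 to 14 days with Xist as covariate, and Ctss at -0.071 for the change in the injury effect with H2-Bl and Rpl29; the cause was not tested. With 1 library left out, members called ranged from 0 to 1 for Nkx6.1 against control at 3 days and for the Nkx6.1 change over time. H2-Aa ranged from -1.86 to 0.54 (Gsx1 at 14 days), -1.55 to 0.24 (Nkx6.1 at 35 days), -1.17 to 0.014 (control, 14 to 35 days), -0.30 to 2.02 (Gsx1, 3 to 14 days) and -2.04 to 0.28 (Gsx1, 14 to 35 days), Ctss from -0.33 to 0.20 (control, 3 to 14 days) and Cd74 from -0.43 to 1.11 (Nkx6.1, 3 to 35 days). Sham H2-Aa at 35 days rests on 4 to 24 counts a library, which limits its fold.

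Replicate numbers do not pair the samples: over 49 same-numbered pairs the correlation of deviations ran from -0.485 to 0.271, and in 0 of 16 comparisons was every pair over 0.1. With the replicate number as a block, the members called stayed at 6 (3 days) and 8 (35 days) against sham, 6 for Gsx1 and 6 for Nkx6.1 against sham, and 1 for Nkx6.1 over time, and the count was 0 elsewhere.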
